A study of Homo sapiens with 11 samples.

Results

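The genes described here are 50 genes of human chromosome 8, of which 31 lie on the short arm (8p), from ERI1 to WRN, and 19 lie on the long arm (8q), from LYN to PUF60. They are 50 of 20245 genes with a named probe on the array and 50 of the 725 that lie on chromosome 8. The list was chosen by chromosome arm with the measured changes between TRIM58-WT and mock arrays in view. Those changes are therefore given for the members as a description, and calls among the members are no test of the list. RNA was measured on 11 Agilent expression arrays of A549 and HCC827, cell lines from lung adenocarcinoma. Mock cells carried the empty retroviral vector pMXs-Neo, TRIM58-WT cells carried the same vector with a FLAG-tagged TRIM58 coding sequence, and all had been selected with G418. TRIM58 belongs to the tripartite motif (TRIM) proteins, many of which act as E3 ubiquitin ligases. The A549 mock group held 3 replicates, of which replicate 1 was hybridised to arrays 1-1 and 1-2, the A549 TRIM58-WT group held 3, and each HCC827 group held 2. In the paper's growth assays the A549 transfectants were clones, whereas those of HCC827 were called crude. The sample labels do not say whether a replicate number stands for a clone, a culture or a repeat preparation. The p-values therefore measure the spread between these replicates, whose origin is not known here.

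Genes that lie side by side on a chromosome share its copy number, so a stretch that is lost or gained tends to carry lower or higher RNA of many of its genes at once. Loss of 8p and gain of 8q are recurrent in epithelial cancers, lung adenocarcinoma included. The short arm carries DLC1, a GTPase-activating protein lost in several cancers, and genes of the lysosome and of DNA repair. On the long arm lie MYC, near its distal end, and cohesin, DNA repair and translation factor genes. RNA alone was measured on these arrays, with no readout of copy number.

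Every level is log2 of the signal of a probe minus the 75th percentile of its array, so 0 is the level of a bright probe and 1 unit is a factor of 2. At least 40.1% of probes were well above background on each array, and the 75th percentile lay between 56.6 and 125 intensity units. The TRIM58 probe did not clear background on the arrays labelled TRIM58-WT, at -4.84, -4.63 and -4.63 in A549 and -5.64 and -5.38 in HCC827. It was well above background only on A549 mock array 3, at -0.71, against -5.28, -5.33 and -5.18 on the other A549 mock arrays. Where the probe lies relative to the inserted coding sequence is not given in the sources used here, so the groups are named by their labels. A549 TRIM58-WT arrays 2 and 3 differed by an SD of 0.24 over the tested probes, less than mock arrays 1-1 and 1-2 of one replicate (0.29), whereas TRIM58-WT arrays 1 and 2 differed by 0.82. Results are therefore also given with TRIM58-WT arrays 2 and 3 averaged and without mock array 3. All 5 epithelial markers cleared background on each array of both mock groups and of HCC827 TRIM58-WT, and 4 did so throughout A549 TRIM58-WT. The exception was EPCAM, above background on 1 of 3 there. In A549 4 of the 5 had lower values than in mock, EPCAM at -4.88 and KRT8 at -1.37, both called, CDH1 at -2.33 and KRT18 at -0.65, while KRT7 was at 0.25. The summed level of the list was 10.5 to 11.1 in A549 mock and 10.1 to 10.7 in A549 TRIM58-WT replicates. Of the 6 fibroblast markers, COL1A1 was above background on all A549 TRIM58-WT arrays and on none of the A549 mock arrays, LUM on 3 of 4 A549 mock arrays and on no TRIM58-WT array, and the other 4 on none. None of the 3 endothelial markers exceeded background on any A549 array. Among leukocyte markers CD3E did on none, CD14 on all 4 mock and 1 of 3 TRIM58-WT arrays, and PTPRC on 2 arrays of each A549 group. The part of these markers in the results was not tested.

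In A549 the members of both arms were lower on the TRIM58-WT arrays than on the mock arrays, and the arms did not part. The median change was -0.66 over the 31 8p members and -0.63 over the 19 8q members, against 0.03 over all 11183 genes tested. Lower values were seen for 28 of 31 8p members and 17 of 19 8q members, beside 47.6% of all genes tested. These medians and counts include MFHAS1, MTMR7, STC1, PLAG1 and TAF2, which were not tested in A549. Over the 28 8p and 17 8q members tested the medians were -0.72 and -0.63. The difference between arms, the 8p median minus the 8q median, was -0.03, with 0.12, -0.11 and -0.13 for TRIM58-WT replicates 1, 2 and 3, so its sign differed among replicates. The same quantity for each mock replicate against the others was 0.10, 0.02 and 0.02. The measured division lay within the long arm. All 16 members from LYN to ATAD2 were lower, with a median of -0.75, and the 14 of them that were tested ranged from -1.49 to -0.45, while MYC, PTK2 and PUF60, the 3 most distal members, was at 0.14, -0.12 and 0.14. PLAG1, one of the 16, was above background on no A549 array, so its lower values carry no change. That split at MYC was chosen after the values were seen. In bulk RNA, fewer cells of a type and less RNA per cell cannot be told apart.

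**Figure D1:**
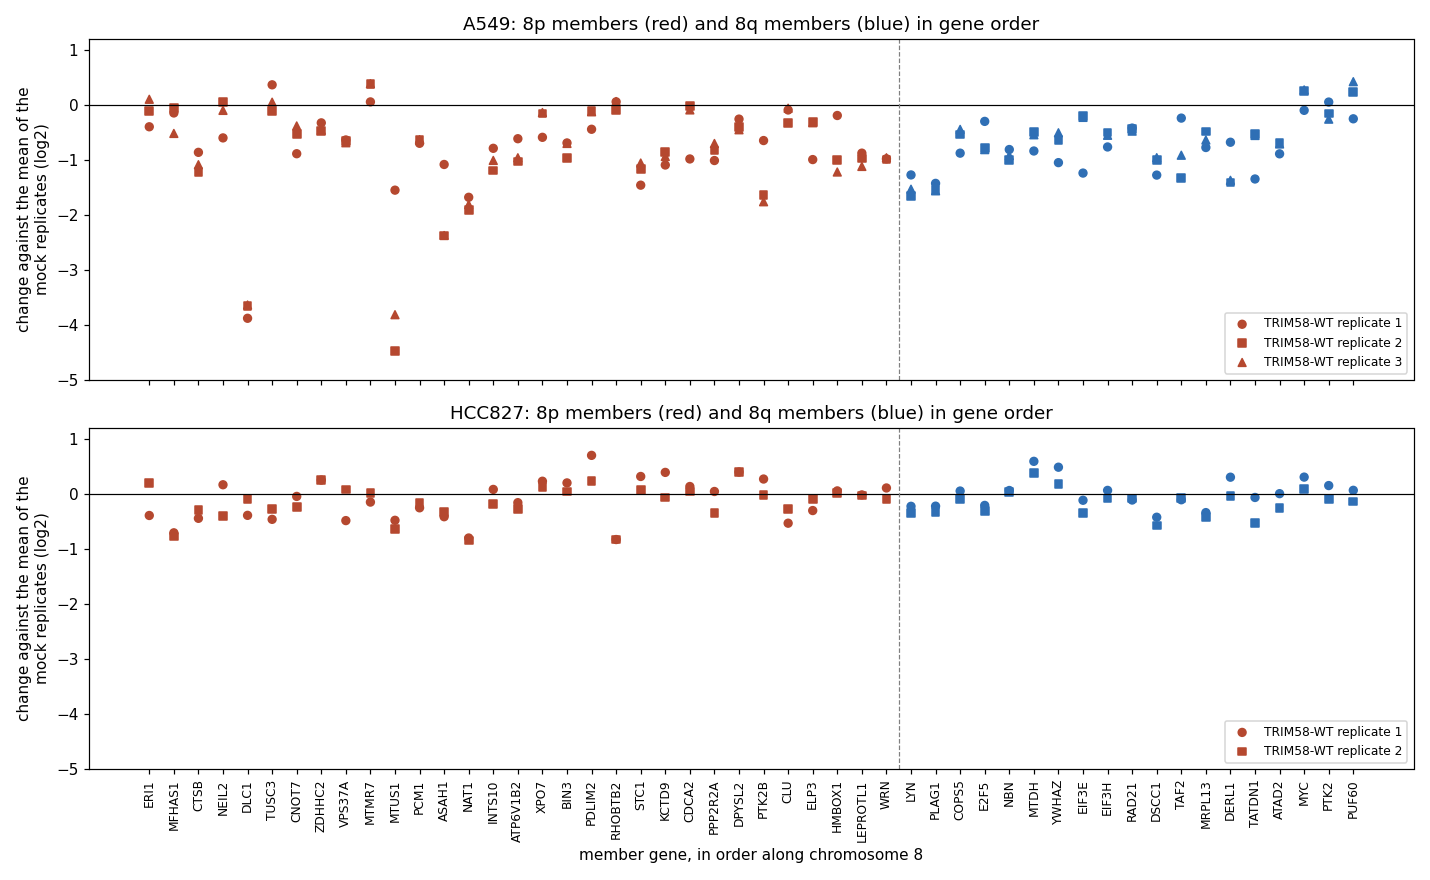
Change of each member (log2, vertical axis) in each TRIM58-WT replicate against the mean of the mock replicates of its line, with members in gene order along chromosome 8 (horizontal axis), 8p in red and 8q in blue, A549 above and HCC827 below. In A549 the members from LYN to ATAD2 lie below 0 in all 3 replicates (PLAG1 without signal above background), MYC, PTK2 and PUF60 lie near 0, and in HCC827 both arms scatter around 0.

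Each A549 TRIM58-WT replicate showed the same picture when set against the mean of the mock replicates. The 8p median was -0.69, -0.65 and -0.69 in replicates 1, 2 and 3, with 28, 29 and 27 of 31 members lower. Over LYN to ATAD2 the median was -0.86, -0.67 and -0.68, with 16 of 16 lower in every replicate. The median of MYC, PTK2 and PUF60 was -0.10, 0.24 and 0.27. A mock replicate set against the other mock replicates gave 8p medians of -0.01, 0.02 and 0.09 and LYN to ATAD2 medians of -0.09, 0.03 and 0.06. The arrays came from 2 slides, and the change could be read on each. Slide 1 held mock arrays 1-1 and 2 and TRIM58-WT array 1, and its medians were -0.81 for 8p and -0.86 for LYN to ATAD2. Slide 2 held mock arrays 1-2 and 3 and TRIM58-WT arrays 2 and 3, and its medians were -0.67 and -0.68. On both slides 27 of 31 8p members and 16 of 16 members from LYN to ATAD2 were lower. Relative to all genes tested, the 8p and 8q medians were -0.69 and -0.66, or -0.66 and -0.68 with TRIM58-WT arrays 2 and 3 averaged, or -0.60 and -0.62 without mock array 3.

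A gene was called when its adjusted p (limma, Benjamini-Hochberg over all probes tested) was under 0.05 with a change of at least 2-fold. Of the 8p members 28 cleared background on all arrays of 1 A549 group or both and were tested, and MFHAS1, MTMR7 and STC1 were not. Of the 8q members 17 were tested, and PLAG1 and TAF2 were not. In A549 5 of the 28 8p members (CTSB, DLC1, MTUS1, ASAH1 and NAT1) and 3 of the 17 8q members (LYN, DSCC1 and DERL1) were called lower, beside 3.43% of all probes tested, and none was called higher, beside 3.49%. Replicates did not overlap, with every TRIM58-WT replicate below every mock replicate, for 19 of the 28 and 12 of the 17, beside 15.1% of all probes tested. Since the list was chosen with this comparison in view, nothing is read from these shares or from the calls that single members kept. The counts of calls depended on single arrays, for the members as over all genes, of which 887 were called. They were 1 and 0 with TRIM58-WT arrays 2 and 3 averaged (262 genes in all). With mock replicate 3 left out they were 7 and 4 (1601 genes), and without TRIM58-WT replicate 1 they were 8 and 2 (1069 genes). When any one of TRIM58-WT replicates 2 and 3 or mock replicates 1 and 2 was left out, they were 1 and 0, beside 236 to 292 genes. DLC1 kept its call in each of these. Of the members 9 had 11 further probes, 8 of which were tested in A549, and all 8 had the sign of the brightest probe of their gene. Their sizes differed, as for LEPROTL1 at -0.19 beside -0.99 for the brightest and PCM1 at -0.25 beside -0.66. Of the 8, only a KCTD9 probe (-1.17 beside -0.96) and that of YWHAZ (-0.97 beside -0.73) lay farther from 0 than the brightest. Among the untested probes, those of DLC1 and PDLIM2 had the other sign, at 0.44 and 0.33, and that of HMBOX1 the same, at -0.84.

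Signalling, cytoskeleton and cell cycle genes of 8p held the largest changes in A549. Levels of the members are given array by array, in the order 1-1, 1-2, 2 and 3 for A549 mock and by replicate number for the other groups. DLC1, the GTPase-activating protein, stood at -1.08, -1.31, -1.28 and -0.75 in A549 mock, -4.96, -4.74 and -4.72 in A549 TRIM58-WT, -5.36 and -5.38 in HCC827 mock and -5.76 and -5.46 in HCC827 TRIM58-WT. It was well above background on all 4 A549 mock arrays and on none of the other 7, so the A549 TRIM58-WT level has only an upper bound and was at least 2.94-fold lower than in mock. MTUS1, a microtubule-associated scaffold protein, stood at 0.78, 0.76, 0.57 and -0.28 in A549 mock, -1.20, -4.13 and -3.46 in A549 TRIM58-WT, -0.76 and -0.33 in HCC827 mock and -1.02 and -1.19 in HCC827 TRIM58-WT. TRIM58-WT replicates 2 and 3 were far lower than replicate 1, which alone of the 3 was above background, and mock array 3 was the lowest of the mock arrays. PTK2B, a tyrosine kinase of the focal adhesion kinase family, stood at 0.47, 0.38, 0.82 and -0.24 in A549 mock, -0.31, -1.30 and -1.43 in A549 TRIM58-WT, 1.26 and 1.09 in HCC827 mock and 1.44 and 1.15 in HCC827 TRIM58-WT. The same arrays stood out, as TRIM58-WT array 1 lay next to mock array 3 and below it by less than the spread of the mock arrays. KCTD9, a BTB-domain protein, stood at 2.89, 2.94, 3.11 and 2.93 in A549 mock, 1.89, 2.13 and 2.05 in A549 TRIM58-WT, 1.60 and 1.76 in HCC827 mock and 2.07 and 1.61 in HCC827 TRIM58-WT. Its A549 groups were apart by -0.96 in the mean without overlap, and all A549 TRIM58-WT arrays stayed above HCC827 mock.

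The other 8 genes of this group had smaller log2 differences between the A549 groups. PPP2R2A, a regulatory subunit of protein phosphatase 2A, was at -0.85, BIN3, a BAR-domain protein, at -0.79 and PCM1, the scaffold of centriolar satellites, at -0.66, and for each the A549 groups did not overlap. DPYSL2, a microtubule-binding protein, was at -0.37, CDCA2, a mitotic regulator of protein phosphatase 1, at -0.37 and PDLIM2, a PDZ and LIM domain protein, at -0.23, with overlapping groups. RHOBTB2, an atypical GTPase, had an A549 difference of 0.0052, and it differed by -0.83 in HCC827. MFHAS1, a leucine-rich repeat protein, was above background on 1 of 7 A549 arrays.

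Among the 8 genes of the lysosome, membranes and glycan transfer, the lysosomal enzymes were the farthest from mock. ASAH1, the acid ceramidase of the lysosome, stood at 4.69, 4.70, 4.68 and 3.68 in A549 mock, 3.27, 1.98 and 1.98 in A549 TRIM58-WT, 3.36 and 3.37 in HCC827 mock and 2.95 and 3.03 in HCC827 TRIM58-WT. The mean change of -1.95 joined a replicate 1 that lay just below mock array 3 to replicates 2 and 3, which lay far below every mock array. CTSB, cathepsin B, a cysteine protease of the lysosome, stood at 2.69, 2.51, 2.62 and 2.60 in A549 mock, 1.74, 1.38 and 1.52 in A549 TRIM58-WT, 0.85 and 0.74 in HCC827 mock and 0.35 and 0.51 in HCC827 TRIM58-WT. All A549 mock arrays lay within a narrow band above the 3 TRIM58-WT arrays, which in turn were above the 4 HCC827 arrays. LEPROTL1, a small membrane protein of endosomes and the Golgi, stood at 3.28, 3.14, 3.27 and 3.26 in A549 mock, 2.37, 2.27 and 2.12 in A549 TRIM58-WT, 2.13 and 2.13 in HCC827 mock and 2.11 and 2.10 in HCC827 TRIM58-WT. ATP6V1B2, a subunit of the proton pump that acidifies the lysosome, stood at 1.67, 1.38, 1.50 and 1.15 in A549 mock, 0.78, 0.36 and 0.43 in A549 TRIM58-WT, 1.73 and 1.87 in HCC827 mock and 1.64 and 1.53 in HCC827 TRIM58-WT. By its brightest probe LEPROTL1 stood near the HCC827 level in A549 TRIM58-WT, whereas ATP6V1B2 stood below it. VPS37A, an ESCRT-I subunit, was at -0.66 in A549 and ZDHHC2, a palmitoyltransferase, at -0.42, both without overlap. TUSC3, a subunit of the oligosaccharyltransferase complex, was at 0.10, and MTMR7, a myotubularin-related phosphatase, was above background on no array.

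Of the secreted and metabolic genes of 8p, NAT1, arylamine N-acetyltransferase 1, stood at 1.08, 1.04, 1.01 and 0.13 in A549 mock, -0.95, -1.18 and -1.08 in A549 TRIM58-WT, 1.94 and 2.20 in HCC827 mock and 1.27 and 1.22 in HCC827 TRIM58-WT. The A549 TRIM58-WT arrays were within a narrow band and below every mock array, and HCC827 differed in the same direction by -0.83, which was not called. STC1, the secreted hormone stanniocalcin 1, stood at -2.64, -2.93, -2.63 and -4.39 in A549 mock, -4.73, -4.43 and -4.33 in A549 TRIM58-WT, -5.22 and -5.09 in HCC827 mock and -4.84 and -5.08 in HCC827 TRIM58-WT. No array had STC1 well above background, so its order has no weight. CLU, clusterin, a secreted chaperone, stood at 4.03, 3.95, 3.96 and 4.10 in A549 mock, 3.92, 3.69 and 3.96 in A549 TRIM58-WT, -0.46 and -0.37 in HCC827 mock and -0.95 and -0.69 in HCC827 TRIM58-WT. CLU separated the lines rather than the groups, with an A549 change of -0.16.

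All 8 genes of DNA and RNA metabolism on 8p were lower in A549 TRIM58-WT, by a median of -0.57, and none was called. INTS10, a subunit of the Integrator complex, stood at 4.41, 4.46, 4.59 and 4.14 in A549 mock, 3.60, 3.20 and 3.38 in A549 TRIM58-WT, 3.98 and 3.94 in HCC827 mock and 4.04 and 3.78 in HCC827 TRIM58-WT. WRN, the RecQ helicase deficient in Werner syndrome, stood at 1.31, 1.24, 1.41 and 1.06 in A549 mock, 0.27, 0.25 and 0.29 in A549 TRIM58-WT, 1.27 and 1.34 in HCC827 mock and 1.42 and 1.22 in HCC827 TRIM58-WT. For both genes the A549 groups lay apart by about the same size, -0.999 and -0.98, while HCC827 differed by -0.05 and 0.01. HMBOX1, a telomere-binding homeobox protein, stood at 2.78, 2.71, 2.76 and 2.07 in A549 mock, 2.33, 1.52 and 1.30 in A549 TRIM58-WT, 1.48 and 1.21 in HCC827 mock and 1.40 and 1.36 in HCC827 TRIM58-WT. CNOT7, a deadenylase of the CCR4-NOT complex, stood at 2.25, 2.23, 2.32 and 2.50 in A549 mock, 1.46, 1.83 and 1.97 in A549 TRIM58-WT, 2.20 and 2.24 in HCC827 mock and 2.17 and 1.98 in HCC827 TRIM58-WT. HMBOX1 overlapped, since TRIM58-WT array 1 was above mock array 3, and CNOT7 did not. ELP3, the catalytic subunit of Elongator, was at -0.55 without overlap. XPO7, a nuclear export receptor, NEIL2, a DNA glycosylase, and ERI1, an RNA exonuclease, were at -0.30, -0.22 and -0.14, with overlap.

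**Figure D2:**
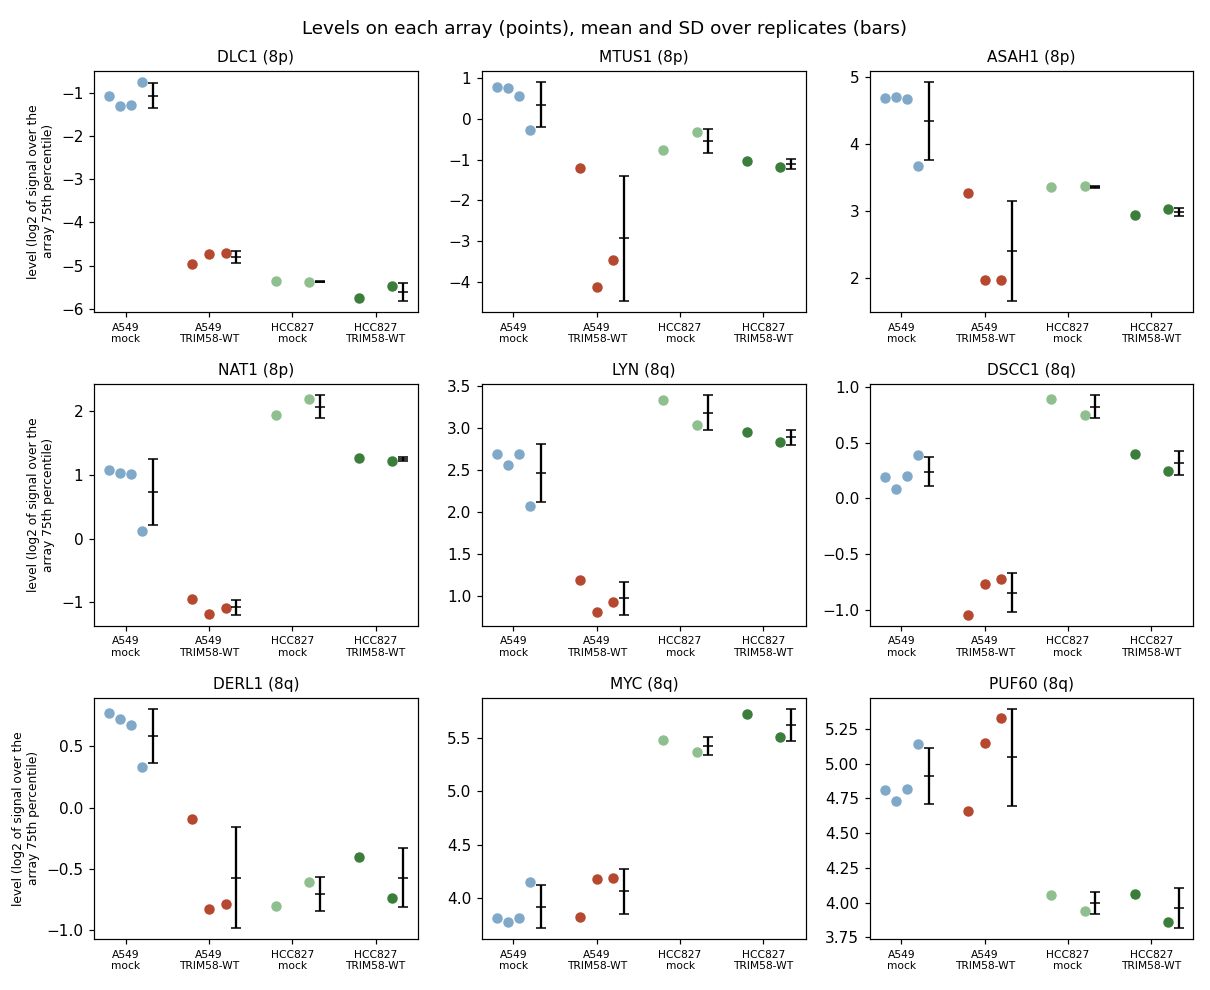
Level (log2 of signal over the 75th percentile of the array, vertical axes) of 9 members on each array, one point an array, by group (horizontal axes), with bars for the mean and SD over replicates. DLC1, NAT1, LYN and DSCC1 keep the A549 groups apart, MTUS1, ASAH1 and DERL1 have TRIM58-WT replicate 1 nearest to mock, and MYC and PUF60 overlap.

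On the long arm, 5 of the 8 kinases, transcription factors and signalling genes (LYN, COPS5, E2F5, MTDH and YWHAZ) were measured above background and lower in A549 in every TRIM58-WT replicate. LYN, a Src family kinase, stood at 2.69, 2.57, 2.69 and 2.07 in A549 mock, 1.19, 0.81 and 0.93 in A549 TRIM58-WT, 3.33 and 3.03 in HCC827 mock and 2.95 and 2.83 in HCC827 TRIM58-WT. Every A549 TRIM58-WT array lay below every mock array, and the HCC827 arrays lay above all of them. PLAG1, a zinc finger transcription factor, stood at -2.91, -2.84, -3.00 and -3.84 in A549 mock, -4.67, -4.79 and -4.80 in A549 TRIM58-WT, 0.68 and 0.60 in HCC827 mock and 0.42 and 0.32 in HCC827 TRIM58-WT. PLAG1 was above background on all 4 HCC827 arrays and on none of the A549 arrays, so it gives no A549 change. YWHAZ, the 14-3-3 protein zeta, stood at 4.89, 4.76, 4.91 and 4.84 in A549 mock, 3.81, 4.22 and 4.35 in A549 TRIM58-WT, 4.41 and 4.28 in HCC827 mock and 4.83 and 4.52 in HCC827 TRIM58-WT. E2F5, a transcription factor of the E2F family, stood at -0.70, -0.82, -0.43 and 0.31 in A549 mock, -0.60, -1.08 and -1.11 in A549 TRIM58-WT, -0.07 and -0.19 in HCC827 mock and -0.34 and -0.45 in HCC827 TRIM58-WT. YWHAZ kept the A549 groups apart, and E2F5 did not. A further YWHAZ probe went the same way in A549, by -0.97, but in HCC827 the 2 probes disagreed, at 0.33 for the brighter and -0.93 for the other. MTDH, metadherin, and COPS5, the catalytic subunit of the COP9 signalosome, were at -0.63 and -0.62 in A549 without overlap.

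MYC, the transcription factor for which 8q gain is best known, stood apart from these neighbours. MYC, the basic helix-loop-helix transcription factor, stood at 3.81, 3.78, 3.81 and 4.15 in A549 mock, 3.82, 4.17 and 4.19 in A549 TRIM58-WT, 5.48 and 5.37 in HCC827 mock and 5.73 and 5.51 in HCC827 TRIM58-WT. PTK2, focal adhesion kinase, stood at 1.21, 1.25, 1.19 and 0.74 in A549 mock, 1.10, 0.89 and 0.79 in A549 TRIM58-WT, 0.80 and 0.70 in HCC827 mock and 0.90 and 0.66 in HCC827 TRIM58-WT. PUF60, a splicing factor, stood at 4.81, 4.73, 4.82 and 5.14 in A549 mock, 4.66, 5.15 and 5.33 in A549 TRIM58-WT, 4.05 and 3.94 in HCC827 mock and 4.06 and 3.86 in HCC827 TRIM58-WT. In each of the 3 the A549 groups overlapped, with TRIM58-WT arrays 2 and 3 above array 1 for MYC and PUF60 and below it for PTK2.

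The 5 genome maintenance and chromatin genes of 8q had a median A549 change of -0.81, and none of them had overlapping A549 groups. DSCC1, a subunit of the clamp loader that serves sister chromatid cohesion, stood at 0.19, 0.09, 0.20 and 0.38 in A549 mock, -1.04, -0.77 and -0.72 in A549 TRIM58-WT, 0.89 and 0.75 in HCC827 mock and 0.40 and 0.24 in HCC827 TRIM58-WT. NBN, a subunit of the MRE11-RAD50-NBN complex of double-strand break repair, stood at 0.10, 0.06, 0.23 and -0.50 in A549 mock, -0.88, -1.06 and -0.99 in A549 TRIM58-WT, -0.26 and -0.25 in HCC827 mock and -0.20 and -0.22 in HCC827 TRIM58-WT. DSCC1 was also lower in HCC827, at -0.50 in the mean without a call, and NBN was at 0.05 there. TATDN1, a putative deoxyribonuclease, stood at 0.28, 0.29, 0.18 and 0.60 in A549 mock, -0.99, -0.17 and -0.20 in A549 TRIM58-WT, 0.02 and 0.28 in HCC827 mock and 0.09 and -0.38 in HCC827 TRIM58-WT. ATAD2, a bromodomain ATPase, stood at 3.33, 3.44, 3.49 and 3.49 in A549 mock, 2.56, 2.76 and 2.74 in A549 TRIM58-WT, 3.06 and 2.95 in HCC827 mock and 3.01 and 2.75 in HCC827 TRIM58-WT. TATDN1 was lowest on TRIM58-WT array 1 and ATAD2 alike on the 3. RAD21, the cohesin subunit, was at -0.45.

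Transcription, translation and protein quality genes of 8q closed the list. DERL1, a membrane protein of endoplasmic reticulum-associated degradation, stood at 0.77, 0.72, 0.68 and 0.33 in A549 mock, -0.10, -0.83 and -0.79 in A549 TRIM58-WT, -0.80 and -0.61 in HCC827 mock and -0.40 and -0.74 in HCC827 TRIM58-WT. TAF2, a subunit of transcription factor TFIID, stood at -1.02, -0.98, -1.40 and -2.16 in A549 mock, -1.76, -2.84 and -2.44 in A549 TRIM58-WT, -1.02 and -1.15 in HCC827 mock and -1.19 and -1.16 in HCC827 TRIM58-WT. A549 TRIM58-WT arrays 2 and 3 had DERL1 near the level of HCC827 and array 1 had it above all HCC827 arrays, whereas TAF2 was above background on 3 of 4 A549 mock arrays and on 1 of 3 TRIM58-WT arrays. MRPL13, a mitochondrial ribosomal protein, stood at 4.81, 5.03, 5.01 and 5.31 in A549 mock, 4.30, 4.60 and 4.44 in A549 TRIM58-WT, 4.71 and 5.20 in HCC827 mock and 4.61 and 4.53 in HCC827 TRIM58-WT. EIF3H, a subunit of translation initiation factor 3, stood at 7.29, 7.14, 7.32 and 7.41 in A549 mock, 6.55, 6.81 and 6.76 in A549 TRIM58-WT, 7.17 and 7.30 in HCC827 mock and 7.30 and 7.15 in HCC827 TRIM58-WT. Both kept the A549 groups apart, at -0.63 and -0.61. EIF3E, another subunit of that factor, was at -0.56 with overlap, as TRIM58-WT array 1 lay far below the mock arrays and arrays 2 and 3 lay beside the lowest of them.

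In HCC827 neither arm differed from mock by as much as in A549. The median change was -0.12 over the 8p members and -0.09 over the 8q members, against 0.01 over 12163 genes tested, and single members ranged from -0.83 to 0.49. Per replicate, the 8p median was -0.05 and -0.09 and the 8q median 0.0039 and -0.10. One mock replicate set against the other gave 0.005 for 8p and 0.10 for 8q in size. The arm difference was -0.02. No member of 28 8p and 19 8q members tested was called by limma, beside 0.885% of all probes tested, and 6 and 2 of them had an unadjusted p under 0.05, beside 2647 of the 12163 genes. The Welch test called none either. With 2 replicates a group, these counts do not show that the members kept their level. The farthest members were RHOBTB2 at -0.83 and NAT1 at -0.83 below mock, and MTDH at 0.49 and PDLIM2 at 0.47 above it. MFHAS1 was above background on both HCC827 mock arrays and on neither TRIM58-WT array, at least 1.67-fold lower. Whether the change differed between the lines was not tested for the members, since the list was chosen on it.

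The remaining genes of chromosome 8 showed where along the chromosome the A549 change was found. Genes were ordered by the RefSeq table. Up to WRN, the 75 other genes tested had a median change of -0.56, with 62 lower. Between WRN and LYN, across the centromere, the 53 tested had -0.58, with 44 lower. From LYN to the gene before MYC, the 123 tested had -0.59, with 108 lower. From MYC to the end of 8q the 81 tested had 0.08, with 39 lower and 42 higher. Called lower were 15, 4, 15 and 2 genes of these stretches, and called higher 1, 2, 3 and 1, beside 454 of 11183 genes tested called lower and 433 called higher. By replicate the first 3 stretches stayed between -0.49 and -0.76, and the last stretch was at -0.14, 0.13 and 0.25. Without the filter on dim probes, the 4 medians relative to all genes were -0.09, -0.33, -0.36 and -0.04, beside -0.59, -0.61, -0.62 and 0.05 with it. In HCC827 the 4 medians were 0.05, 0.03, -0.11 and 0.09.

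**Figure D3:**
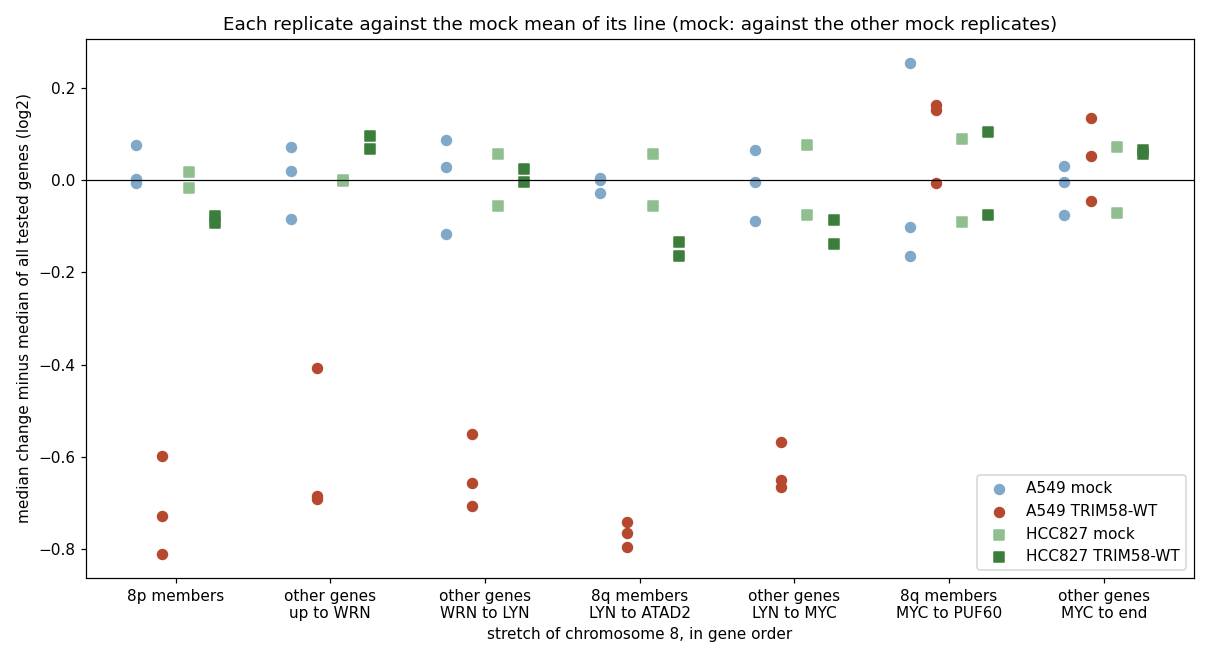
Median change of each stretch of chromosome 8 minus the median of all tested genes (log2, vertical axis), one point a replicate, with stretches in gene order (horizontal axis). The red A549 TRIM58-WT points lie between -0.41 and -0.81 in the first 5 stretches and from -0.04 to 0.16 from MYC on, where they overlap the mock replicates.

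A running median over 15 tested genes was below 0 in A549 at each of its 286 windows before MYC, and below 0 at 37 of 77 windows from MYC on. Its windows hold the tested members as well as the other genes. Since the members were chosen with the A549 change in view, it is a description and adds nothing to the stretches without members. Its lowest value was -1.35, at MTUS1 on 8p, and its highest before MYC was -0.14, at MTMR9 near the start of 8p. From MYC on it ranged from -0.24 at PTK2 to 0.27 at LRRC24. In HCC827 it ranged from -0.40 to 0.34 over the chromosome. Single genes at the borders are given by their log2 difference between the A549 groups. Next to WRN, PPP2CB, a catalytic subunit of protein phosphatase 2A, was at -0.98 and NRG1, the ERBB ligand neuregulin 1, at 0.22. Beside LYN, TGS1, an RNA cap methyltransferase, was at -0.53 and RPS20, a ribosomal protein, at -0.22. Just before MYC, TRIB1, a pseudokinase, was at 0.01 and CASC8 at -1.37, and just after it PVT1, a long non-coding RNA, at -0.44 and ASAP1, an Arf GTPase-activating protein, at 0.22, so these single genes, those around MYC chosen after their values were seen, mark no sharp boundary. Over whole chromosomes, the 377 tested genes of chromosome 8 had the lowest median of 23 in A549, -0.50. Chromosome 5 was next at -0.48, then chromosome 18 at -0.08. In HCC827 chromosome 8 ranked 11 from the lowest. The 377 genes include the members tested in A549, 28 on 8p and 17 on 8q, chosen with the A549 change in view. No whole-chromosome median without them was computed, so nothing is read from the rank.

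**Figure D4:**
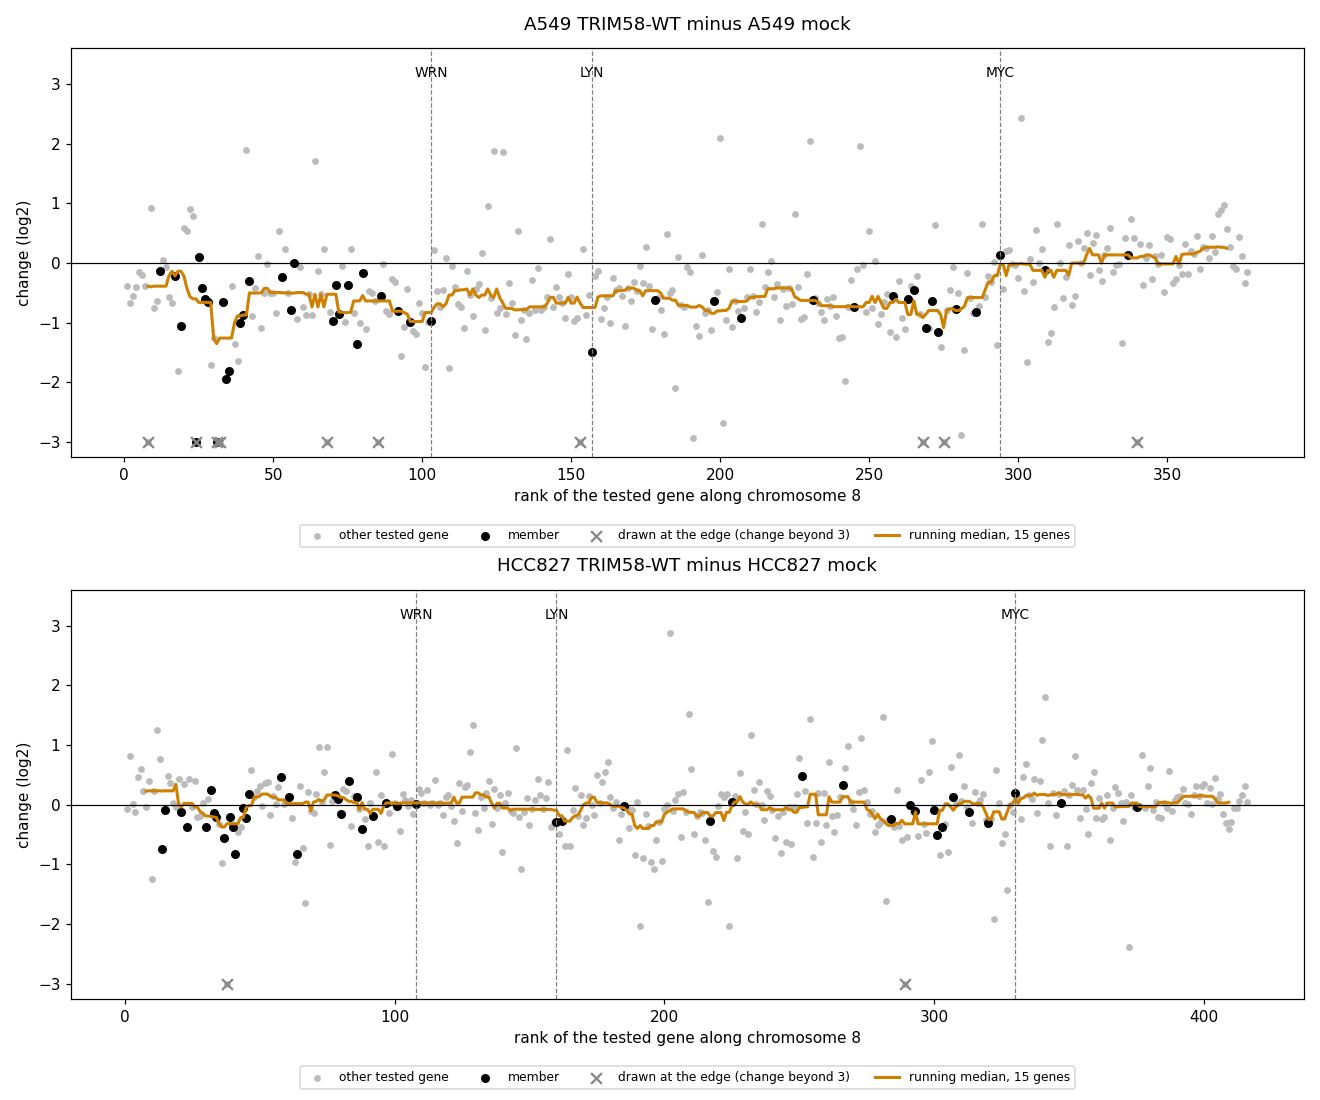
Change of every tested gene of chromosome 8 (log2, vertical axis) by its rank along the chromosome (horizontal axis), members in black, other genes in grey, the running median over 15 genes in orange, and WRN, LYN and MYC marked, for A549 above and HCC827 below. The A549 running median stays below 0 up to MYC and lies near 0 after it, and the 10 A549 and 2 HCC827 genes with a change beyond 3 are drawn at the edge.

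Other chromosome 8 genes with a known role were counted by lists, whose calls stand beside those 454 and 433 of 11183 genes. Of the 4 receptors of 8p for the ligand TRAIL, 3 were tested in A549, all lower and none called. TNFRSF10B was at -0.94, TNFRSF10A at -0.88 and TNFRSF10D, a decoy receptor, at -0.74. Of 26 other 8p genes named in cancer, 17 were tested, 14 were lower and 4 were called lower. FGL1, a secreted fibrinogen-like protein, was at -6.48 and DEFB1, an epithelial defensin, at -4.12, each above background on 1 of 3 A549 TRIM58-WT arrays, so that these sizes rest largely on background. The 1 gene of that list called higher was LOXL2, a lysyl oxidase, at 1.72. Of 33 genes of 8p11 to p12, 25 were tested, 20 were lower and 3 called lower. SLC20A2, a phosphate transporter, was at -1.27 and AP3M2, an adaptor complex subunit, at -1.21, while SFRP1, a secreted Wnt inhibitor, was called higher at 1.87 and FGFR1, a fibroblast growth factor receptor, was at 0.96. In HCC827 these 3 lists had 2 calls, beside 90 of 12163 genes called lower. FGL1 was at least 5.61-fold lower, as neither TRIM58-WT array was above background, and the decoy receptor TNFRSF10C was at -1.65.

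On 8q, 30 of 37 listed genes of 8q11 to q21 were tested, 28 were lower, 3 were called lower and none higher. CA2, carbonic anhydrase 2, was at -2.68 and TPD52, tumour protein D52, at -1.22, while STAU2, an RNA-binding protein, and FABP5, a fatty acid-binding protein, were at 0.10 and 0.14. The 48 listed genes of 8q22 to q24, which run past MYC, had 39 tested, of which 23 were lower, 2 called lower and 1 called higher, with a median of -0.27 against -0.66 for 8q11 to q21. MAL2, a transcytosis protein of polarized epithelium, was not above background on the A549 TRIM58-WT arrays and was at least 39.1-fold lower there than in mock. ST3GAL1, a sialyltransferase, was at -1.66. NCALD, a neuronal calcium sensor, was above background only on the A549 TRIM58-WT arrays, at least 3.00-fold higher than in mock, and TRAPPC9, a trafficking complex subunit, was at 0.55. None of the 31 and 45 genes of these lists tested in HCC827 was called by limma.

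The lines were also compared with each other. The comparison of mock arrays shares its A549 mock arrays with the comparison on which the members were chosen, so its tests are not independent of that choice. On the mock arrays 10 of 29 tested 8p members were called higher in A549 than in HCC827, beside 14.1% of all probes tested, and 1 was called lower, beside 16.2%. Of the 19 8q members 2 were called higher and 3 lower. The other 8p members called higher beside CLU, DLC1 and ZDHHC2 were CTSB, KCTD9, DPYSL2, HMBOX1, LEPROTL1, PDLIM2 and VPS37A, at 1.01 to 1.81. The largest 8p difference was that of CLU, 4.43 (standard error 0.16, adjusted p = 7.31e-05). DLC1 was at least 4.47-fold higher in A549 mock (adjusted p = 0.000177), since no HCC827 array had it above background. ZDHHC2 was higher by 2.02 (standard error 0.16, adjusted p = 0.000678), and the 8p member called lower was NAT1, at -1.34 (standard error 0.34, adjusted p = 0.0275). On 8q, DERL1 was higher by 1.29 (standard error 0.20, adjusted p = 0.00576) and MTDH by 1.29 (standard error 0.16, adjusted p = 0.00274). PLAG1 was at least 10.7-fold lower in A549 mock (adjusted p = 0.000838), MYC differed by -1.51 (standard error 0.19, adjusted p = 0.00283) and COPS5 by -1.26 (standard error 0.15, adjusted p = 0.0025). Under the 20 other settings CLU, ZDHHC2, KCTD9, MTDH, MYC and COPS5 kept their call in all, whereas VPS37A lost it in 10, HMBOX1 and PDLIM2 in 8 each and NAT1 in 6.

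On the TRIM58-WT arrays the difference between the lines contains the change on which the members were chosen, so it is given as a description, with no p, and nothing is read from the counts of calls. Of 26 tested 8p members 4 were called higher, beside 14.9% of all probes tested, and 4 lower, beside 15.9%. Of 19 8q members 1 was called higher and 6 lower. CLU was again the highest, at 4.68 (standard error 0.20), followed by RHOBTB2 at 1.51 (standard error 0.18) and ZDHHC2 at 1.35 (standard error 0.17). NAT1 differed by -2.32 (standard error 0.18), PTK2B by -2.31 (standard error 0.39) and ATP6V1B2 by -1.06 (standard error 0.21). On 8q, PUF60 was the member called higher, at 1.09 (standard error 0.26). PLAG1 was at least 7.97-fold lower, LYN differed by -1.92 (standard error 0.20) and COPS5 by -1.86 (standard error 0.22). The other members called were CTSB at 1.12, WRN at -1.05, TAF2 at -1.17, DSCC1 at -1.16 and MYC. MYC was lower in A549 by a like amount in both comparisons, -1.51 on mock and -1.56 on TRIM58-WT arrays. Under the 18 other settings CLU, NAT1, LYN and COPS5 kept their call in all, whereas PUF60 lost it in 12, TAF2 in 11 and ATP6V1B2 in 9.

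**Figure D5:**
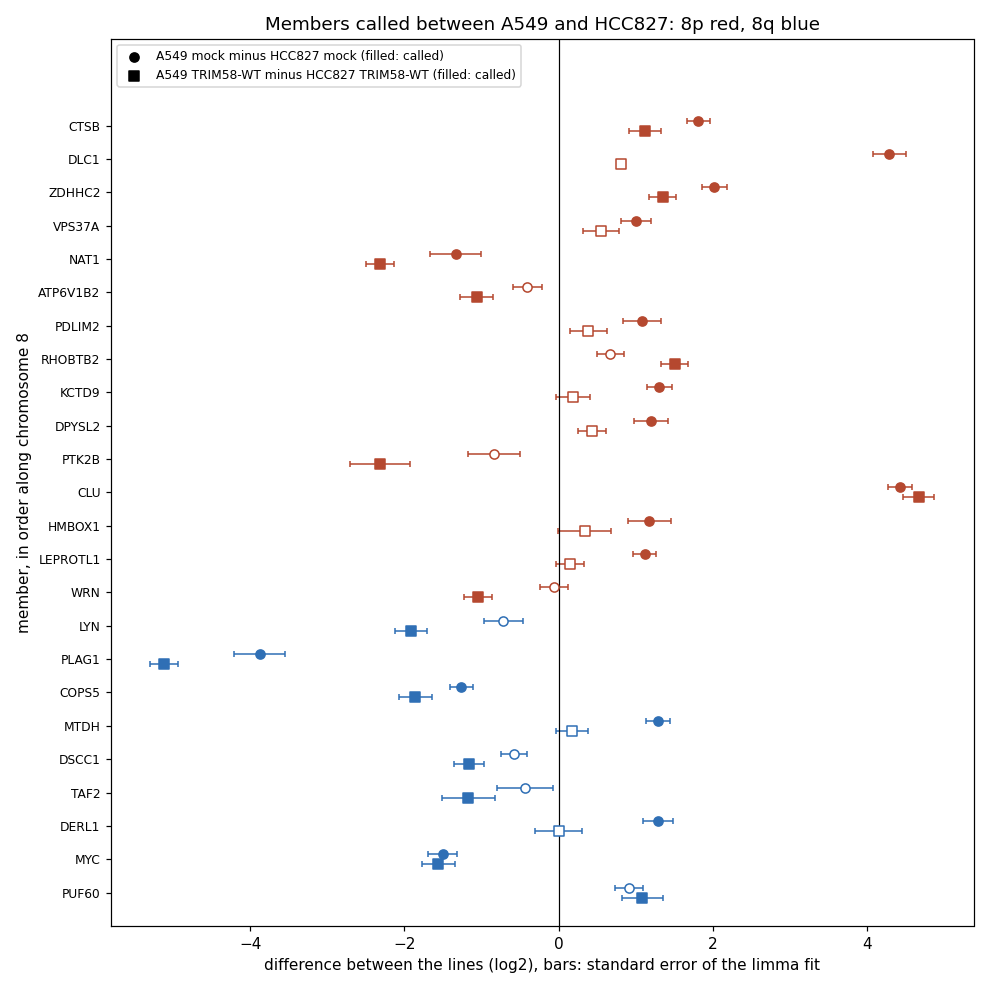
Difference between A549 and HCC827 (log2, horizontal axis) for the 24 members called in either comparison (vertical axis, in gene order), on mock arrays (circles) and on TRIM58-WT arrays (squares), filled where called, with bars for the standard error of the fit (DLC1 was not tested on TRIM58-WT arrays and has no bar there). Of these members CLU, RHOBTB2 and PUF60 lie farther to the right on TRIM58-WT arrays than on mock arrays, and the other 21 lie farther to the left. This shift is the A549 change minus the HCC827 change, on which the members were chosen. It was not counted over all genes, so nothing is read from the number. DLC1 and PLAG1 were above background on no A549 TRIM58-WT array.

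Over the arms, the median difference between the lines was 0.43 for 8p and 0.13 for 8q members on mock arrays, and -0.10 and -0.52 on TRIM58-WT arrays, against -0.06 and -0.05 over all genes tested. Up to WRN, the other genes of chromosome 8 had a median of 0.41 on mock and -0.05 on TRIM58-WT arrays. Between WRN and LYN they had 0.36 and -0.05. From MYC to the end of 8q, the other genes had a median of 0.70 on mock and 0.82 on TRIM58-WT arrays, whereas from LYN to MYC they had -0.23 and -0.80. All HCC827 arrays were on slide 1. On that slide alone, all 16 members called on mock arrays and all 15 called on TRIM58-WT arrays had the same sign. The same arrays had entered those calls, so this is no separate support. With slide as a term the difference rests on slide 1 alone, since slide 2 held no HCC827 array. On mock arrays 14 members were then called, beside 4025 genes in all. For TRIM58-WT that fit rests on 1 A549 array, so its count is not given.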

How the data were processed

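RNA was measured in 4 groups of cultured cells on 11 one-colour Agilent arrays. Per the file headers, the deposited processed signals are background-subtracted intensity values of single spots, from Feature Extraction 11.5.1.1 (the submitters' notes name 10.7). The deposited log2 table holds the authors' normalized values of the same arrays and served as an alternative. How the authors scaled it is not given in the sources used here. Every column read was matched to a sample, with 0 left out. Here the spots of each of 42405 probes were averaged without outlier spots, scaled by the 75th percentile of the array and put on the log2 scale. A549 mock arrays 1-1 and 1-2 were averaged as 1 replicate. The 2 groups compared entered each fit (limma 3.58.1 in R 4.3.3, lmFit and eBayes), with Benjamini-Hochberg adjustment over all probes tested. Tests took in probes that cleared background on all arrays of 1 group or both, as the scanner software flags it. Calls needed a change of at least 2-fold and an adjusted p below 0.05. The brightest probe stood for a gene. Genes were named and ordered by the RefSeq table of GRCh38.p14, which named 27237 probes. No coordinates are printed, since the array design uses another build.

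The members and lists were chosen with earlier results of these data known. Members given by array are up to 4 of each role group with the largest A549 change in size. MYC, PTK2 and PUF60 were added after their values were seen. In the comparisons of the lines the called members with the 3 largest increases and the 3 largest decreases of each arm are given with their errors. Of each list of other genes the largest 2 increases and 2 decreases among tested genes are named. Some genes of these lists are not reported here. Alternatives covered the scaling, background correction, filter, probe choice, test, replicate and slide blocks and each replicate left out. The number of arrays limits the precision.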

Additional observations from a re-analysis of the deposited data

Results flagged for a closer look

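In 10 members every A549 TRIM58-WT replicate lay below the mock mean and every HCC827 TRIM58-WT replicate above it. The difference between the lines was not tested. Members were chosen with these changes in view, and the share over all genes was not counted, so nothing is read from the number. Some changes were small beside the mock replicates. In HCC827, HMBOX1 was at 0.05 and 0.01, with mock replicates at 0.27 and -0.27. CDCA2 was at 0.13 and 0.04 there, with mock replicates at -0.19 and 0.19. The A549 change minus the HCC827 change, on the log2 scale, was -0.67 for ZDHHC2, -0.48 for XPO7, -0.91 for BIN3, -0.70 for PDLIM2, -0.45 for CDCA2, -0.77 for DPYSL2 and -0.84 for HMBOX1 among the 7 on 8p. For the 3 on 8q it was -0.96 for NBN, -1.11 for MTDH and -1.06 for YWHAZ. The second YWHAZ probe was lower in HCC827 as well, at -0.93, so the opposite directions of YWHAZ hold for the brighter probe alone. The other chromosome 8 genes up to WRN were opposite too, with an A549 median minus HCC827 median of -0.61, likewise not tested.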

How the results depend on the processing

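The member medians kept their sign under all settings run, whereas the arm differences and the median of other A549 genes from MYC on, all near 0, took either sign. In A549 the arm difference stayed between -0.11 and 0.05 under all 21 settings. The 8p and 8q medians relative to all genes, -0.69 and -0.66, were -0.52 and -0.53 with normexp background correction and -0.85 and -0.83 with no filter on dim probes. The 8q median was -0.70 with mock array 1-2 alone. Leaving out one replicate gave -0.78 to -0.60 for 8p and -0.73 to -0.62 for 8q. The other genes up to WRN (-0.59) were at -0.40 with normexp, -0.089 with no filter and -0.72 to -0.51 without one replicate. Between WRN and LYN (-0.61) they were at -0.44 and -0.33 with normexp and with no filter, from LYN to MYC (-0.62) at -0.43 and -0.36, and from MYC on (0.05) at -0.043 with no filter. From LYN to the end (-0.36) they were at -0.40 with quantile normalization, -0.23 with normexp and -0.21 with no filter. The counts of called 8p members in A549 (5) were 8 with the array median, 3 with normexp, 2 with no filter, 2 with the filter on every array, 0 with the Welch test, 1 with TRIM58-WT replicates 2 and 3 averaged and 1 to 8 without one replicate. Those of 8q members (3) were 1 with normexp, 0 with no filter, the Welch test or averaging, and 0 to 4 without one replicate. Over all genes the A549 calls (887) were 849 with the array median, 414 with normexp, 459 with no filter and 517 with the filter on every array. They were 21 with the Welch test, 262 with averaging and 236 to 1601 without one replicate. In HCC827 the 8p median (-0.12) was -0.14 with quantile normalization, -0.15 with normexp, -0.086 with no filter and -0.11 to -0.085 without one replicate. Its 8q median (-0.10) was -0.037 with normexp and -0.10 to -0.022 without one replicate, and its arm difference (-0.02) was -0.12 with normexp and -0.087 to 0.0077 without one replicate. Between mock groups 11 8p members were called, 6 with normexp or the Welch test and 6 to 11 without one replicate. Between TRIM58-WT groups 8 8p members were called, 3 with normexp, 5 with the Welch test and 4 to 11 without one replicate, and 7 8q members, 4 with normexp and 3 to 7 without one replicate. Over all genes, calls between mock groups went from 3949 to 2335 with normexp and 2117 with the Welch test. Between TRIM58-WT groups they went from 4007 to 2321 and 1398. The filter does not enter the members' own A549 medians, -0.66 for 8p and -0.63 for 8q. With no filter only the median of all genes moved for these, from 0.028 to 0.195. The cause of the other shifts was not tested. The array median scaling moved the median of all genes in A549 by -0.37, so medians are given relative to it.

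Samples were not paired by replicate number. Correlations of deviations between replicates of the same number were 0.50, -0.42 and 0.50 in A549 and 0.08 in HCC827. With so few replicates they cannot settle whether the numbers pair the samples. A replicate block left 5 and 3 members called in A549 (849 genes in all), 11 and 5 between mock groups (4320) and 5 and 4 between TRIM58-WT groups (3085). No fit with slide could be made for HCC827, whose arrays share 1 slide. The small number of arrays and, for DLC1, MTUS1 and PLAG1, signals not well above background limit these values.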
